A study of Mus musculus with 12 samples.

Results

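The Bcl2 family decides whether a stressed cell keeps its mitochondria intact, and 10 of its genes were followed here through 4 inhibitor treatments of mouse mammary tumour cells. The genes were taken by symbol from the gene count table: the BH3-only death genes Bmf, Bad, Bcl2l11 (which encodes Bim), Bbc3 (Puma), Pmaip1 (Noxa) and Bik, the survival genes Mcl1, Bcl2l1 (Bcl-xL) and Bcl2, and the effector Bax. All 10 were found among the 55573 genes of the table, and 9 of them were among the 13836 genes with enough counts to test, Bik being the exception. The cells were spindloid (mesenchymal) tumour lines A1005, A1129 and A1471, each raised from a separate tumour of the MMTV-Metmt;Trp53fl/+;Cre mouse and grown as tumourspheres. Each line was exposed for 24 h to DMSO (the vehicle), to 1 µM Crizotinib, an inhibitor of the receptor kinase Met, to 1 µM PD173074, an inhibitor of FGF receptors, or to both inhibitors (the combination). That gave 12 RNA-seq libraries, with n = 3 lines per treatment and 1 library for each line and treatment.

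Every library, DMSO included, carried the mutant Met transgene under the mammary MMTV promoter and came from mice with 1 floxed Trp53 allele and Cre. Expression of the transgene and Met activity were not analysed here. Each line is a single culture from 1 tumour, and the spread between lines stands for the spread between tumours. The libraries held 13031492 to 17750476 counts. The mesenchymal label was checked against 7 marker genes, whose summed level was 3336 to 9747 CPM (counts scaled to a common library size) and was carried mostly by Vim, Fn1 and Sparc. Of the same list, Cdh2 had at most 6 counts in any library, and Twist1 averaged 113 CPM with DMSO and 53.2 CPM with the combination (edgeR adjusted p = 0.00156). Of 7 epithelial markers the sum was 7.24 to 53.4 CPM. Krt18 (53 to 748 counts per library) and Krt8 (17 to 611) made up most of it on average, while Cldn7 had no count in any library. Of 6 leukocyte markers the sum was 4.47 to 42.0 CPM. Cd68 (62 to 439 counts per library) and Ptprc (0 to 339) made up most of it, while Cd3e, Itgam and Adgre1 had no more than 2 counts in any library. The 5 endothelial markers summed to at most 0.888 CPM. The part of these other cell types in the results was not tested.

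BH3-only proteins are the sensors of the family. They are made or released when survival signals fail, and they act by binding the grooves of the survival proteins or by switching on Bax and Bak directly. Survival proteins such as Mcl-1, Bcl-xL and Bcl-2 hold the BH3-only proteins and the effectors in check. Once Bax or Bak opens the outer mitochondrial membrane, cytochrome c is released and caspases are activated. Growth factor receptors restrain this arm at several points: ERK signalling marks Bim for destruction, kinases of the Akt and Rsk families phosphorylate Bad so that it is held by proteins of the 14-3-3 family, and forkhead factors that Akt keeps out of the nucleus can switch on Bim and Puma. Noxa, Puma and Bax are classic targets of p53. Much of this control acts on proteins, which RNA counts do not measure.

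With the combination, Bmf, Bad and Bcl2l11 rose above DMSO in all 3 lines, by 53.9-fold, 1.81-fold and 2.84-fold in the fit. Bbc3 was also higher in all 3 lines and passed once the line was part of the model, as did 28.6% of all genes as higher. Of the remaining BH3-only genes, Pmaip1 had no count in A1005, was lower in A1129 and higher in A1471 and did not pass, and Bik had too few counts to test. The unpaired test passed 6.1% of all genes as higher and 8.28% as lower, and none of the survival genes. Bcl2 was lower in A1129 and A1471 but near DMSO in A1005. It passed as lower once the line was part of the model (26.2% of all genes did), a call lost without A1129 or A1471. Bax differed by less than the spread between lines. With PD173074 alone Bmf was higher in all 3 lines and passed with the line in the model (1.62% of all genes passed as higher), unless A1471 was left out. With Crizotinib alone none of the members passed, and 0% of all genes did in edgeR.

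The stretches before the start sites of the 3 genes that passed in the unpaired test of the combination against DMSO are given first. They are from RefSeq promoter windows on GRCm38.p6, which covered 8 of the 10 genes in 16 windows (Bik and Pmaip1 had none). Each run is 250 bases, 5′ to 3′ in the direction of transcription, and capitals mark a match to a searched motif on either strand.
Bmf (chr2:118549687-118549936, minus strand): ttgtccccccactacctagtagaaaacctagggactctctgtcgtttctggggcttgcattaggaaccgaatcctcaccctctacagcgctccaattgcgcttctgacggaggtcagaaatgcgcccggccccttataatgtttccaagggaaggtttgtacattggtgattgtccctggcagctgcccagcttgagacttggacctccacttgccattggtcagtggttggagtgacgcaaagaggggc
Bad (chr19:6941611-6941860, plus strand): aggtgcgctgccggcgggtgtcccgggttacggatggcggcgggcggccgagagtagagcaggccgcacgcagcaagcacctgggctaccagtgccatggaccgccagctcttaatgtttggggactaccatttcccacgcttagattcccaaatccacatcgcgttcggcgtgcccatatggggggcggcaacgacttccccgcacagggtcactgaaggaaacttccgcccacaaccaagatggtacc
Bcl2l11 (chr2:128125788-128126037, plus strand): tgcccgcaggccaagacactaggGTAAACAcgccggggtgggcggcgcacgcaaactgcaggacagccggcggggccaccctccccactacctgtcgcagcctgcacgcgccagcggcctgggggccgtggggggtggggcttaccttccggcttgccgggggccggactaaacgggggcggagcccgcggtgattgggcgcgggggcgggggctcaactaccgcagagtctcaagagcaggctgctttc

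For this, 3 sets of letters were searched in these windows, with 50 bases after the start included: TGTTTAC, bound by forkhead factors, TGAGTCA, bound by AP-1, and CACGTG, the E-box. Of 32851 promoter windows of the same length, 3.65% held the forkhead letters, 5.2% the AP-1 letters and 7.15% the E-box. The Bcl2l11 window above held the forkhead letters, read on the opposite strand, with their first base at -227 relative to the start. Neither the Bmf nor the Bad window held any of the 3 motifs. Among the other members, a Bbc3 window held the forkhead letters at -167 and another Bbc3 window the E-box at -64, and the Bax window held the E-box at -9 and at 35. The E-box reads the same on both strands, and no window held the AP-1 letters. The GC content of the printed stretches was 54% for Bmf, 62.8% for Bad and 72% for Bcl2l11.

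Bmf encodes a BH3-only protein that is held at the cytoskeleton by a dynein light chain in attached cells and is known for its part in the death of detached epithelial cells. The gene (ENSMUSG00000040093) lies on the minus strand of chromosome 2 of mm10, from 118528757 to 118549687. In DMSO it was barely expressed, at 3.51 CPM in A1005, 1.25 in A1129 and 1.86 in A1471. Crizotinib left it at 2.94, 1.92 and 2.16 CPM in the same lines, within the range of DMSO. With PD173074 the levels were 28.7 CPM in A1005, 8.87 in A1129 and 38.6 in A1471, so each line lay above every DMSO library and the lines differed among themselves. With the combination they were 111, 119.5 and 126 CPM. The line with the weakest response to PD173074, A1129, thus reached the level of the other lines once Crizotinib was added, and no combination library overlapped with any other treatment.

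For Bmf, the combination lay above DMSO by 5.75 on the log2 scale (SE 0.60, adjusted p = 0.000409 by edgeR's quasi-likelihood test). Ranked by log2 fold change from the highest, it was gene 31 of the 13836 tested. The authors chose Bmf and Bad for display as apoptosis genes with these same libraries, so their direction here is not independent evidence. Against Crizotinib alone the log2 fold change was 5.67 (SE 0.59, adjusted p = 0.000504), and against PD173074 alone it was 2.23 (SE 0.50, adjusted p = 0.0338). The change with PD173074 alone was 3.52 (SE 0.54), which did not pass the unpaired edgeR test (adjusted p = 0.566, although its p of 6.74e-05 was the smallest of all genes). With the line as a block it passed (log2 fold change 3.46, adjusted p = 0.00558), and DESeq2 without a block gave 2.06e-07. Without A1471 the unpaired adjusted p for the combination against DMSO was 0.0635, with a change of 5.61 on the log2 scale over the 2 lines left, and against Crizotinib it was 0.0655. Against PD173074 alone the unpaired call was lost without any 1 line (adjusted p from 0.0971 to 0.271). The blocked call for PD173074 against DMSO was lost without A1471 (adjusted p = 0.144).

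Bad encodes a BH3-only protein that binds Bcl-xL and Bcl-2 and is kept inactive by phosphorylation. Its gene (ENSMUSG00000024959) spans 6941861 to 6951899 on the plus strand of chromosome 19. The levels were 19.3 CPM in A1005, 19.7 in A1129 and 16.2 in A1471 with DMSO, and 34.7, 35.5 and 29.9 CPM with the combination. The rise was nearly the same size in each line, with log2 differences of 0.84, 0.84 and 0.87. Neither inhibitor alone brought Bad near these levels: the libraries were at 15.3 to 19.9 CPM with Crizotinib and 19.5 to 23.8 CPM with PD173074. The fitted log2 fold change was 0.86 against DMSO (SE 0.18, edgeR adjusted p = 0.0119) and 0.86 against Crizotinib (SE 0.18, adjusted p = 0.0121). Against PD173074 it was 0.66 (SE 0.18) with an adjusted p of 0.0676, which became 0.00128 with the line as a block. Leaving out A1005, A1129 or A1471 kept the log2 fold change against DMSO between 0.86 and 0.87, with adjusted p from 0.0510 to 0.131. Against Crizotinib they ran from 0.0497 without A1005 to 0.123 without A1129, with 0.116 without A1471.

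The exons of Bad share 524 bases with Gpr137, a gene on the opposite strand, and whether the counting used strand is not given in the sources used here. Gpr137 itself averaged 13.4 ± 4.40 CPM in the DMSO libraries and 16.8 ± 6.44 in those of the combination (SD, n = 3). Its fitted log2 change was 0.33 (edgeR adjusted p = 0.651, and 0.109 with the line as a block). Reads from the shared stretch cannot be told apart without strand.

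Bcl2l11 encodes Bim, a BH3-only protein that binds all survival proteins and can activate Bax. The gene (ENSMUSG00000027381) runs from 128126038 to 128162547 on the plus strand of chromosome 2. It was measured at 26.6, 35.4 and 23.0 CPM in A1005, A1129 and A1471 with DMSO. The single inhibitors gave 32.4 to 41.5 CPM (Crizotinib) and 32.3 to 41.4 CPM (PD173074), higher than DMSO in each line but overlapping with it between lines. The combination gave 50.6 CPM in A1005, 110.3 in A1129 and 80.5 in A1471, all above every other library. A1005 showed the smallest rise, at a log2 difference of 0.92, against 1.64 in A1129 and 1.80 in A1471. The fit gave a log2 fold change of 1.51 against DMSO (SE 0.28, edgeR adjusted p = 0.00709), 1.17 against Crizotinib (SE 0.28, adjusted p = 0.0219) and 1.12 against PD173074 (SE 0.28, adjusted p = 0.0485). Without A1129 the change against DMSO was 1.41 (adjusted p = 0.0684), and without A1471 it was 1.40 (adjusted p = 0.164). Leaving out the same lines gave adjusted p of 0.124 and 0.242 against Crizotinib, and against PD173074 the call was lost without any 1 line (0.0561 to 0.355).

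**Figure D1:**
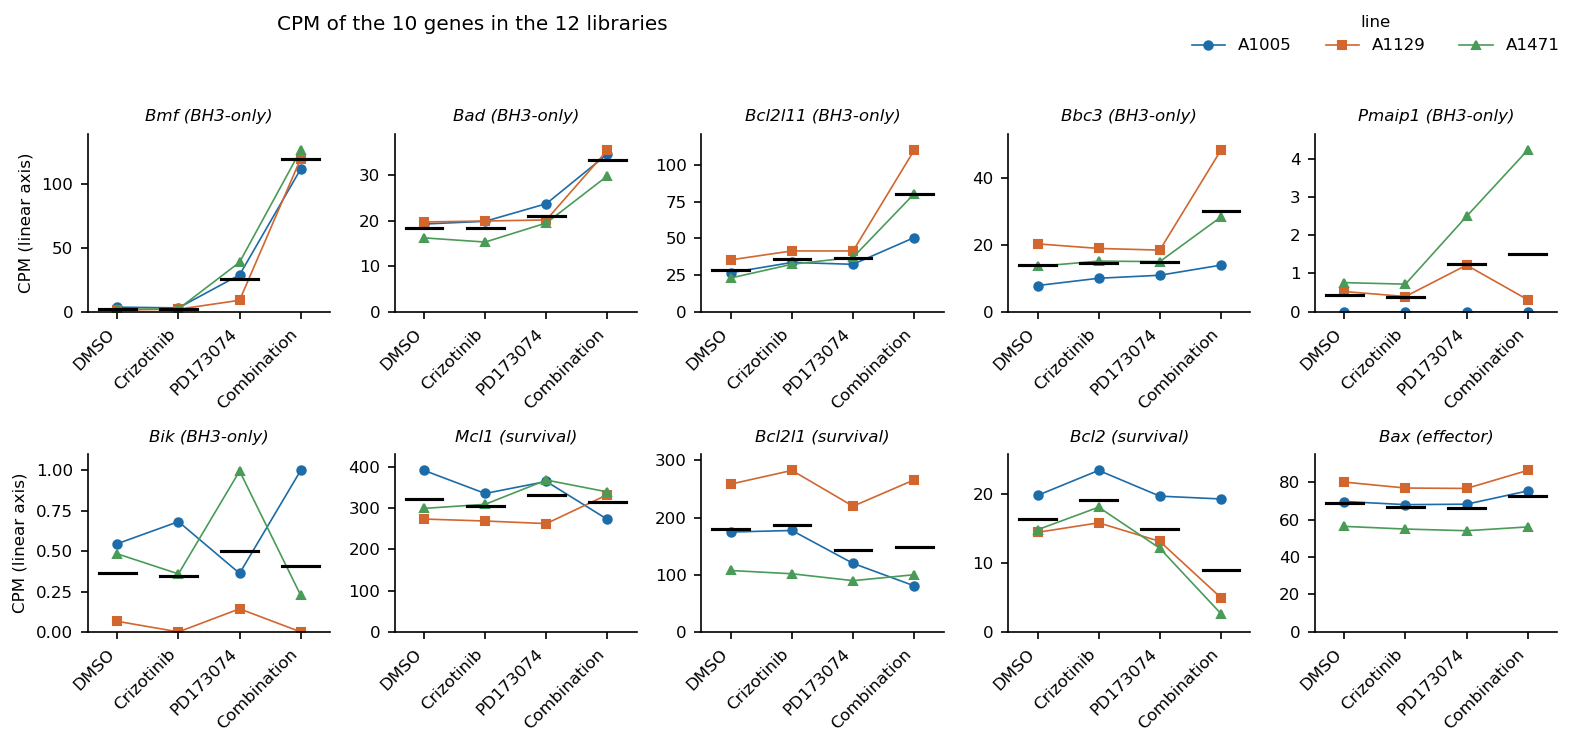
CPM of each gene (linear vertical axes, each from 0 and each on its own scale) by treatment, with 1 point per library, lines joining the libraries of one tumour line and black bars at the mean of the 3 lines. Bmf, Bad and Bcl2l11 have their 3 highest libraries in the combination, Bcl2 separates A1005 from the other lines there, and Pmaip1 has no count in A1005.

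Bbc3 encodes Puma, a broad BH3-only binder of survival proteins. The gene (ENSMUSG00000002083, chromosome 7, 16308393 to 16318205) differed more between lines than between most treatments: with DMSO it was at 7.81 CPM in A1005, 20.3 in A1129 and 13.5 in A1471. With the combination it was at 13.9, 48.3 and 28.3 CPM. The value in A1005 with the combination was therefore below that of A1129 with DMSO, and the groups overlapped. Within each line the combination was the highest of the 4 treatments, with log2 differences from DMSO of 0.82, 1.25 and 1.06. The unpaired test gave a log2 fold change of 1.12 (SE 0.48, edgeR adjusted p = 0.156), and with the line as a block it was 1.07 (SE 0.18, adjusted p = 0.000704). The block also brought Bbc3 past the threshold against Crizotinib (adjusted p = 0.00151, from 0.19 unpaired) and against PD173074 (adjusted p = 0.00338, from 0.287), the latter lost without A1129 (0.0608) or A1471 (0.0598). Both single inhibitors left it close to DMSO, with means of 14.7 ± 4.47 and 14.7 ± 3.76 CPM against 13.9 ± 6.23 (SD, n = 3).

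Pmaip1 and Bik were near the limit of detection. Pmaip1, which encodes Noxa, a binder of Mcl-1 (ENSMUSG00000024521, chromosome 18, 66458533 to 66465565), had no count in any of the 4 libraries of A1005, which allows a level of up to 0.167 to 0.234 CPM there (3 counts, counting error only). In A1129 it had 8, 6, 17 and 5 counts with DMSO, Crizotinib, PD173074 and the combination, and in A1471 it had 11, 10, 35 and 56. The rise in A1471 was not shared by A1129, and the fitted change of the combination against DMSO was 1.78 with a standard error of 1.95 (edgeR adjusted p = 0.611). Bik (ENSMUSG00000016758, chromosome 15, 83526862 to 83544634) had at most 18 counts in a library and was at 0 in A1129 with Crizotinib and with the combination, so no change was tested.

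Turning to the survival genes, Mcl1 (ENSMUSG00000038612, chromosome 3, 95658788 to 95663176), whose short-lived protein guards against Bim and Noxa, was the most abundant member per length in every treatment. It stood at 391, 273 and 299 CPM in A1005, A1129 and A1471 with DMSO and at 272, 332 and 339 CPM with the combination. A1005 was lower by a log2 difference of -0.52 while A1129 and A1471 were higher by 0.28 and 0.18, and the groups overlapped. The fitted log2 fold change was -0.03 (SE 0.19, edgeR adjusted p = 0.947), and its sign was not stable across alternatives.

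Bcl2l1 (ENSMUSG00000007659, chromosome 2, 152780668 to 152831728) encodes Bcl-xL. The 3 lines kept their order in DMSO, Crizotinib and PD173074, with A1129 highest and A1471 lowest. In DMSO they were at 175, 259 and 107 CPM (A1005, A1129, A1471), and in the combination at 80.6, 266 and 100.04 CPM. Only A1005 moved by more than 1 on the log2 scale, with a difference of -1.12, against 0.04 in A1129 and -0.10 in A1471. Over the lines the log2 fold change was -0.28 (SE 0.56, edgeR adjusted p = 0.808, and 0.148 with the line as a block).

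Bcl2, the founding survival gene of the family (ENSMUSG00000057329, chromosome 1, 106538178 to 106714274), showed the reverse pattern over lines. With DMSO the levels were 19.8 CPM in A1005, 14.4 in A1129 and 14.8 in A1471, and with the combination 19.2, 4.95 and 2.64 CPM. In raw counts these were 253, 219 and 214 against 346, 79 and 35. The log2 differences were -0.04 in A1005, -1.52 in A1129 and -2.43 in A1471, and neither single inhibitor lowered the gene by this much in any line. The unpaired log2 fold change was -0.86 (SE 0.59, edgeR adjusted p = 0.383), and with the line as a block it was -1.11 (SE 0.38, adjusted p = 0.0321). The result rested on which lines were included: without A1005 the unpaired change was -1.93 (adjusted p = 0.0192), and with the block the adjusted p was 0.217 without A1129 and 0.181 without A1471. Against Crizotinib the block gave -1.33 (adjusted p = 0.0144) where the unpaired test gave -1.09 (adjusted p = 0.268), and against PD173074 neither passed (-0.74, adjusted p = 0.592, and 0.0726 with the block). Without A1005 the unpaired test passed against both, with changes of -2.15 (adjusted p = 0.0157) and -1.72 (adjusted p = 0.0466), while the blocked call against Crizotinib was lost without A1129 (0.124) or A1471 (0.109).

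Bax, the effector (ENSMUSG00000003873, chromosome 7, 45461697 to 45466898), kept its order of lines throughout, with A1129 highest and A1471 lowest. Its levels were 69.7, 80.1 and 56.4 CPM with DMSO and 75.4, 86.4 and 56.1 CPM with the combination (A1005, A1129, A1471). The log2 fold change was 0.08 (SE 0.22, edgeR adjusted p = 0.863), and the spread between lines was larger than any difference between treatments. With 1 library per line and treatment, a difference in response between lines could not be tested for any of these genes.

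**Figure D2:**
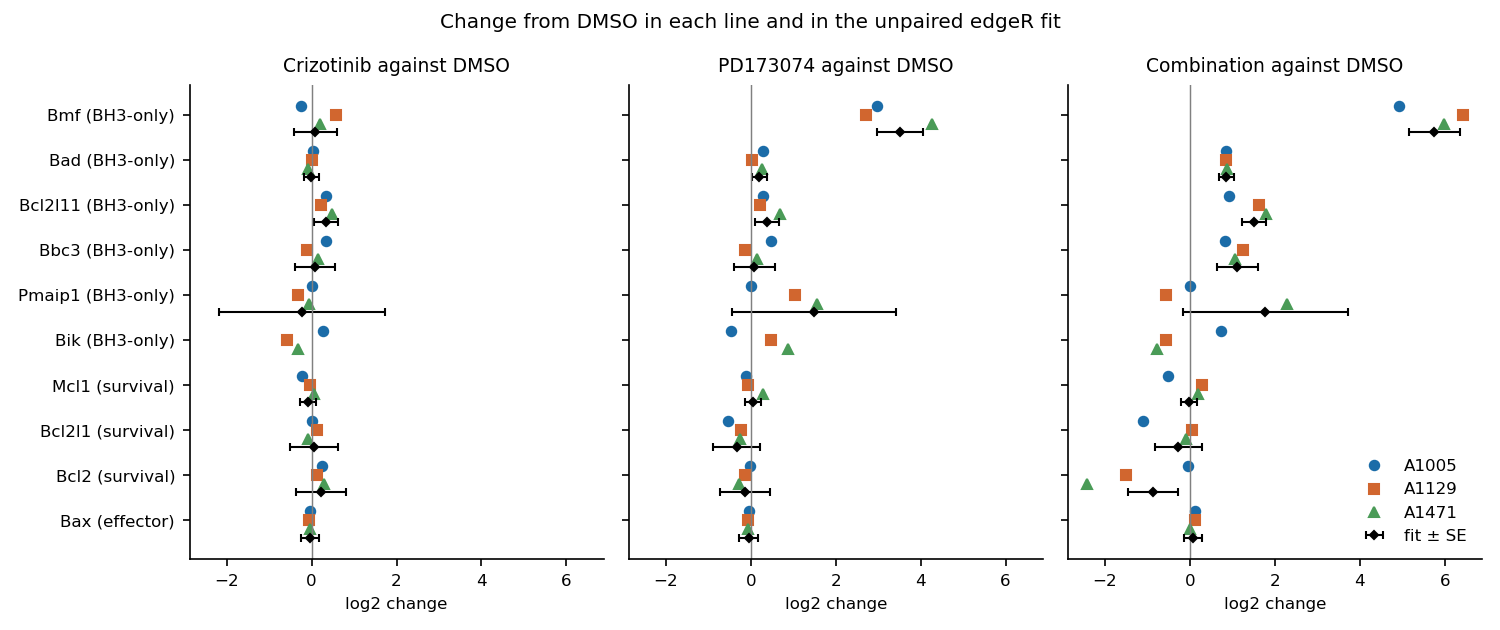
Log2 change from DMSO (horizontal axes, shared scale) for each gene with Crizotinib, PD173074 and the combination, with 1 coloured mark per line and a black diamond with its standard error for the unpaired edgeR fit over 3 lines (Bik was not tested). With the combination, the BH3-only genes Bmf, Bad, Bcl2l11 and Bbc3 lie right of 0 in every line. The BH3-only genes Pmaip1 and Bik and the survival genes Mcl1 and Bcl2l1 have marks on both sides of 0. Bcl2 lies left of 0, from -0.04 in A1005 to -2.43 in A1471.

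Counted over the members tested, 3 of 9 passed as higher with the combination than with DMSO (Bmf, Bad and Bcl2l11) and 0 as lower, beside 6.1% and 8.28% of all 13836 genes. All 3 were among the 5 BH3-only genes tested, and none of the 3 survival genes passed. The members were chosen with earlier results of these data known, and the authors displayed Bmf and Bad from these same libraries. Counts of members beside the share of all genes are therefore a description, and enrichment was not tested. At an unadjusted p under 0.05 there were 4 members (28.9% of all genes), and DESeq2 also called 3 as higher (10.4% of all genes). With the line as a block, 4 members passed as higher (Bbc3 joining) and 1 as lower (Bcl2), where 28.6% and 26.2% of all genes did. The blocked test thus called 54.8% of all genes, and the unpaired test 14.4%. The median log2 fold change was 1.51 for the 5 BH3-only genes tested and -0.28 for the survival genes, beside 0.02 over all tested genes. Those 5 include Pmaip1 (1.78, SE 1.95), which had no count in A1005. With only the groups compared, Pmaip1 did not meet the filter on low counts. Groups that did not overlap in any library were seen for 3 members (again Bmf, Bad and Bcl2l11), all higher, and for 13.8% of all genes as higher.

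Against Crizotinib alone, the combination was higher for the same 3 members and lower for none (5.4% and 7.78% of all genes). With the block these were 4 and 1 members, beside 27.4% and 26% of all genes. Compared with PD173074 alone, 2 members passed as higher, Bmf and Bcl2l11, and 0 as lower (0.838% and 3.93% of all genes). There the block gave 4 higher and 0 lower, beside 19.6% and 20.2% of all genes. The libraries of Bmf, Bad and Bcl2l11 did not overlap between the combination and either single inhibitor, as was the case in the higher direction for 13.6% of genes against Crizotinib and 8.97% against PD173074. These 3 comparisons share the combination libraries.

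With Crizotinib alone, 0 of 9 members passed in edgeR, none had an unadjusted p under 0.05, and DESeq2 called none either (0% of all genes passed in edgeR, with 18 at an unadjusted p under 0.05, and 0.00723% in DESeq2). With PD173074 alone, 0 of 9 passed in the unpaired test, as for all genes (0%), and 1 (Bmf) had an unadjusted p under 0.05 (2.22% of all genes). With the block, Bmf alone passed among the members, beside 1.62% of all genes as higher, and it alone passed in DESeq2 (0.094% of all genes as higher). Bmf was also the only member whose libraries did not overlap between PD173074 and DMSO, as were 3.35% of all genes in the higher direction. The median log2 fold change of the 5 BH3-only genes tested, Pmaip1 near the limit of detection included, was 0.08 with Crizotinib and 0.38 with PD173074. Bad and Bcl2l11 were higher than DMSO with PD173074 in 3 of 3 lines, with fitted changes of 0.20 (SE 0.18) and 0.38 (SE 0.27) and no pass in either test.

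Whether the combination exceeded the sum of the single inhibitors was asked with the departure from additivity, the log2 change of the combination minus that of each inhibitor alone. For Bmf the departure came to 2.20, 3.17 and 1.51 in A1005, A1129 and A1471. For Bad it was 0.50, 0.80 and 0.69, and for Bcl2l11 0.31, 1.18 and 0.63. Bbc3 gave 0.00 in A1005, 1.49 in A1129 and 0.76 in A1471, so its excess was seen in 2 of the lines. The unpaired test passed 0 of 9 members, and DESeq2 also passed 0 (0.918% of all genes passed in edgeR and 3.32% in DESeq2). At an unadjusted p under 0.05 there were 2 members in edgeR and 3 in DESeq2, beside 9.03% and 10.7% of all genes. With the line as a block, Bmf (2.27, SE 0.60, adjusted p = 0.0319) and Bad (0.66, SE 0.15, adjusted p = 0.0186) passed, beside 5.46% of all genes as higher, while Bcl2l11 (0.73, adjusted p = 0.0605) and Bbc3 (0.78, adjusted p = 0.0631) did not. Leaving out any 1 line raised the adjusted p of Bmf to between 0.0766 and 0.112 and that of Bad to between 0.0553 and 0.148, with the block. Without A1005, Bcl2l11 (adjusted p = 0.0279) and Bbc3 (0.0234) passed there as higher and Bcl2 (0.0176) as lower.

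**Figure D3:**
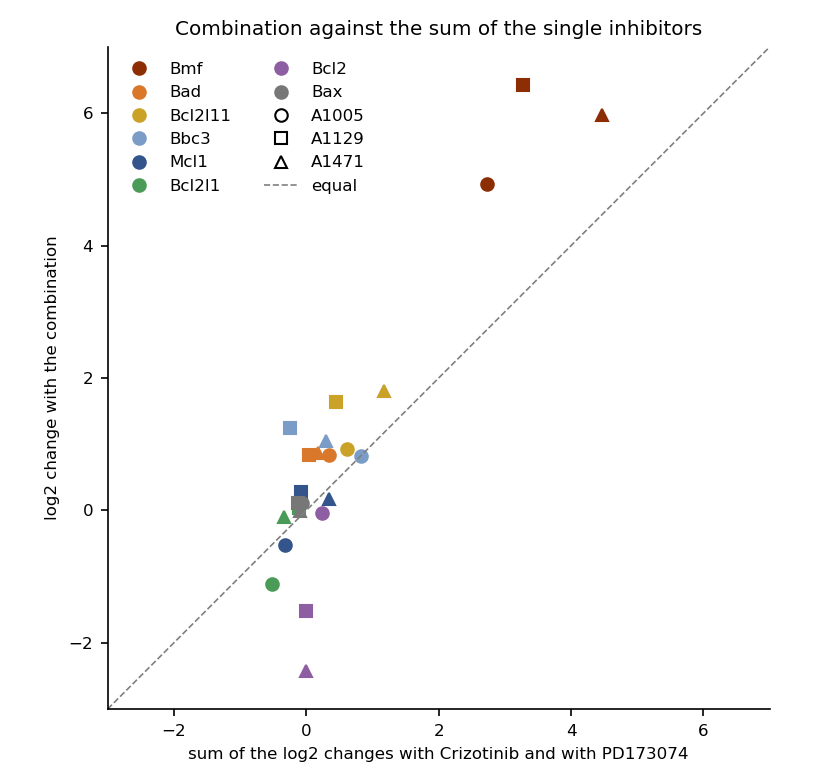
Log2 change with the combination (vertical) against the sum of the log2 changes with Crizotinib and with PD173074 (horizontal), 1 mark per gene (colour) and line (shape), for the 8 genes above the detection limit, with a dashed line where both are equal. The Bmf points lie above the line in each tumour line, by 1.51 to 3.17. Bcl2 lies below it in each, with departures of -0.27 in A1005, -1.51 in A1129 and -2.43 in A1471.

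Levels were compared between genes per kilobase of exon, which uses the union of annotated exons and not the isoform in use. In DMSO the order was Mcl1 (93.9 ± 18.1 CPM per kb), Bax (43.6 ± 7.53), Bcl2l1 (39.3 ± 16.5), Bad (7.20 ± 0.745), Bbc3 (6.53 ± 2.93), Bcl2l11 (3.53 ± 0.793), Bcl2 (1.78 ± 0.326), Bmf (0.421 ± 0.223), Bik (0.230 ± 0.164) and Pmaip1 (0.157 ± 0.142; SD, n = 3). Bax and Bcl2l1, Bad and Bbc3, and Bmf, Bik and Pmaip1 did not differ from their neighbours by more than the spread between lines. With the combination Bmf stood at 22.6 ± 1.40 CPM per kb, the highest mean of the BH3-only genes and next to Bcl2l1 at 32.5 ± 22.2. Bbc3 followed at 14.2 ± 8.12, and in A1129 it was level with Bmf (22.72 and 22.75 CPM per kb).

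Summed per kilobase, the BH3-only genes came to 0.136 ± 0.0314 of the survival genes in DMSO, 0.147 ± 0.0178 with Crizotinib, 0.196 ± 0.0209 with PD173074 and 0.485 ± 0.0154 with the combination (SD, n = 3). By line (A1005, A1129, A1471) the ratio with the combination was 0.486, 0.470 and 0.501, so the lines were close to each other in it although single survival genes had moved differently. Bmf made up 2.51% ± 1.64 of the BH3-only sum in DMSO and 38.2% ± 6.54 with the combination. The mean log2 CPM of the BH3-only genes minus that of the survival genes was higher with the combination than with DMSO by 1.93, 1.90 and 2.65 in A1005, A1129 and A1471 (mean 2.16 ± 0.42, SD). This mean weights all 6 BH3-only genes equally, Pmaip1 and Bik near the limit of detection included. In the same lines their log2 differences were 0, -0.56 and 2.29 (Pmaip1) and 0.74, -0.57 and -0.78 (Bik). The sums and means were built from genes named with earlier results known and are given as a description, with no test. In bulk RNA, a change in the number of cells that express a gene and a change per cell cannot be told apart.

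**Figure D4:**
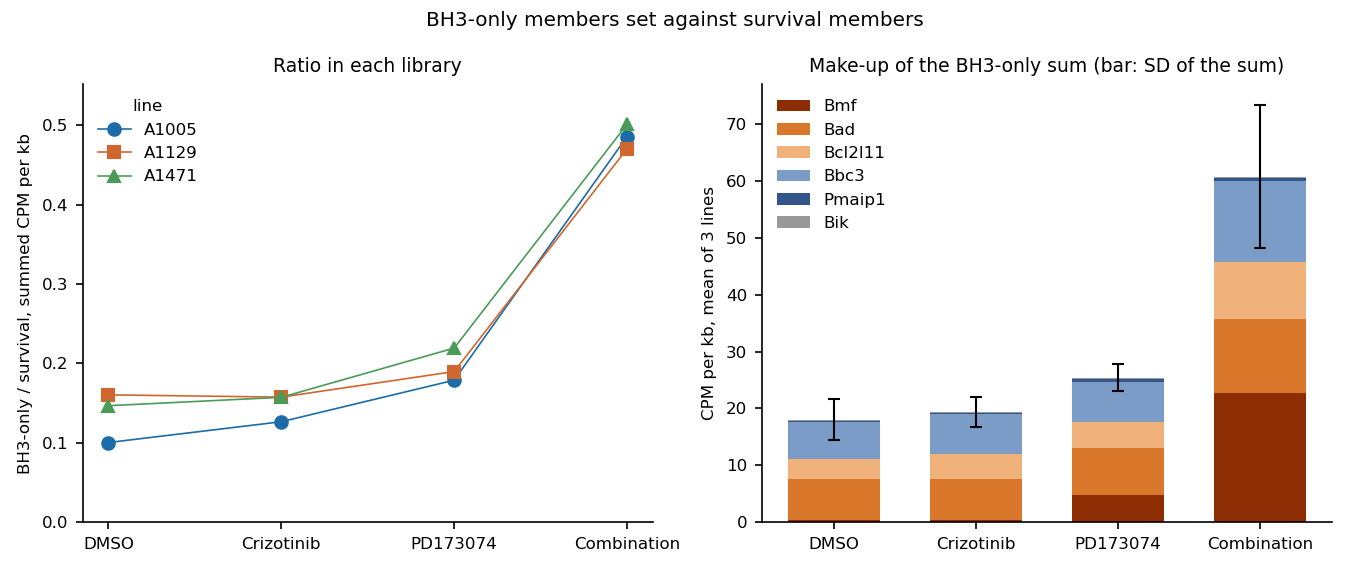
Left, ratio of the summed CPM per kb of the BH3-only genes to that of the survival genes in each library, by treatment and line, on an axis from 0. Right, the BH3-only sum in CPM per kb split by gene, as the mean of 3 lines with the SD of the sum; the combination ratios lie between 0.470 and 0.501, and Bmf makes up 38.2% of that sum.

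The genes whose pattern over the 12 libraries was most like that of the called members, by Pearson's r of log2 CPM centred within each line, were looked up among 9216 well-expressed genes. For Bmf these were C3, a complement component (r = 0.995), Herc6 (r = 0.994) and E130308A19Rik (r = 0.993). For Bad they were Zscan21 (r = 0.993), Acadm, which encodes an enzyme of fatty acid oxidation (r = 0.992), and Gabarap, an autophagy gene (r = 0.992). For Bcl2l11 they were Bach1 (r = 0.996) and the autophagy gene Atg14 (r = 0.990). Among the members, Bmf followed Bad at r = 0.933 and Bcl2l11 followed Bbc3 at r = 0.956, while Bcl2 ran against Bcl2l11 at r = -0.872. All points share the same 4 treatments and 12 libraries, so these are descriptions.

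Of 15 other genes of the Bcl2 family, 8 had enough counts to test, and 7 (Hrk, Bcl2l10, Bcl2a1a, Bcl2a1b, Bcl2a1d, Bcl2l14 and Bcl2l15) did not. With the combination 1 rose above DMSO and 0 fell (1 and 2 with the block). Here and for the lists that follow, 6.1% of all genes passed as higher and 8.28% as lower in the unpaired test, and 28.6% and 26.2% with the block. The gene that rose was Bid, whose protein carries the signal of death receptors to mitochondria, which averaged 45.2 ± 4.66 CPM under DMSO and 74.3 ± 14.8 under the combination (log2 fold change 0.72, SE 0.17, edgeR adjusted p = 0.0238). With the line as a block, Bcl2l2, a survival gene (31.0 ± 11.8 to 19.7 ± 10.2 CPM, adjusted p = 0.00163), and Bnip3, which links to mitophagy (151 ± 42.0 to 97.3 ± 26.1 CPM, adjusted p = 0.00476), also passed, both lower. The second effector, Bak1, was at 108 ± 19.2 and 99.5 ± 32.5 CPM (adjusted p = 0.8). The remaining 4 tested genes had unpaired log2 fold changes of -0.91 (Bok), -0.47 (Bcl2l12), -0.04 (Bcl2l13) and 0.09 (Bnip3l), with adjusted p of 0.461, 0.339, 0.932 and 0.914. The median over the 8 was -0.30.

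Downstream of the family, 14 caspase and mitochondrial death genes were all tested, and with the combination 0 rose and 2 fell in the unpaired test (4 and 3 with the block). With the block, the share of these genes that passed was near the 54.8% of all genes. Cycs, which encodes cytochrome c, averaged 105 ± 9.81 CPM under DMSO and 46.6 ± 11.5 under the combination (log2 fold change -1.17, SE 0.18, edgeR adjusted p = 0.003). Htra2, which encodes a mitochondrial protease that can free caspases from their inhibitors, was at 83.1 ± 21.2 and 38.1 ± 9.99 CPM (log2 fold change -1.12, SE 0.26, adjusted p = 0.0199). Outside the naming rule and chosen after its values were seen, the inhibitor of apoptosis gene Birc2 was at 45.8 ± 45.6 and 116 ± 99.97 CPM (log2 fold change 1.34, adjusted p = 0.432, and 2.13e-05 with the block). The median over the 14 genes was -0.028.

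Of 11 death receptor genes 8 were tested, and 1 rose and 0 fell with the combination (3 and 1 with the block). It was Fas, the receptor for Fas ligand, at 6.55 ± 3.46 CPM with DMSO, 27.9 ± 4.01 with PD173074 and 72.3 ± 16.9 with the combination (log2 change 3.46, SE 0.53, adjusted p = 0.00289 by edgeR). Its ligand gene Fasl, named outside the naming rule after its values were seen, was not tested, with a mean of 0 CPM in DMSO and 0.0209 CPM with the combination. Of 21 partners and regulators of the member proteins, 20 were tested, and 0 rose and 1 fell (3 and 6 with the block, a share below the 54.8% of all genes). The gene that fell was Rps6ka1, which encodes a kinase of the Rsk family that acts on Bad, at 122 ± 19.5 and 53.2 ± 2.85 CPM (log2 fold change -1.20, SE 0.15, adjusted p = 0.00115). The dynein light chain genes Dynll1 and Dynll2, whose proteins bind Bim and Bmf, also lie outside that rule and were at log2 fold changes of -0.09 and 0.15 (adjusted p of 0.72 and 0.588). The medians of these lists were -0.04 and -0.12, beside 0.02 over all tested genes.

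**Figure D5:**
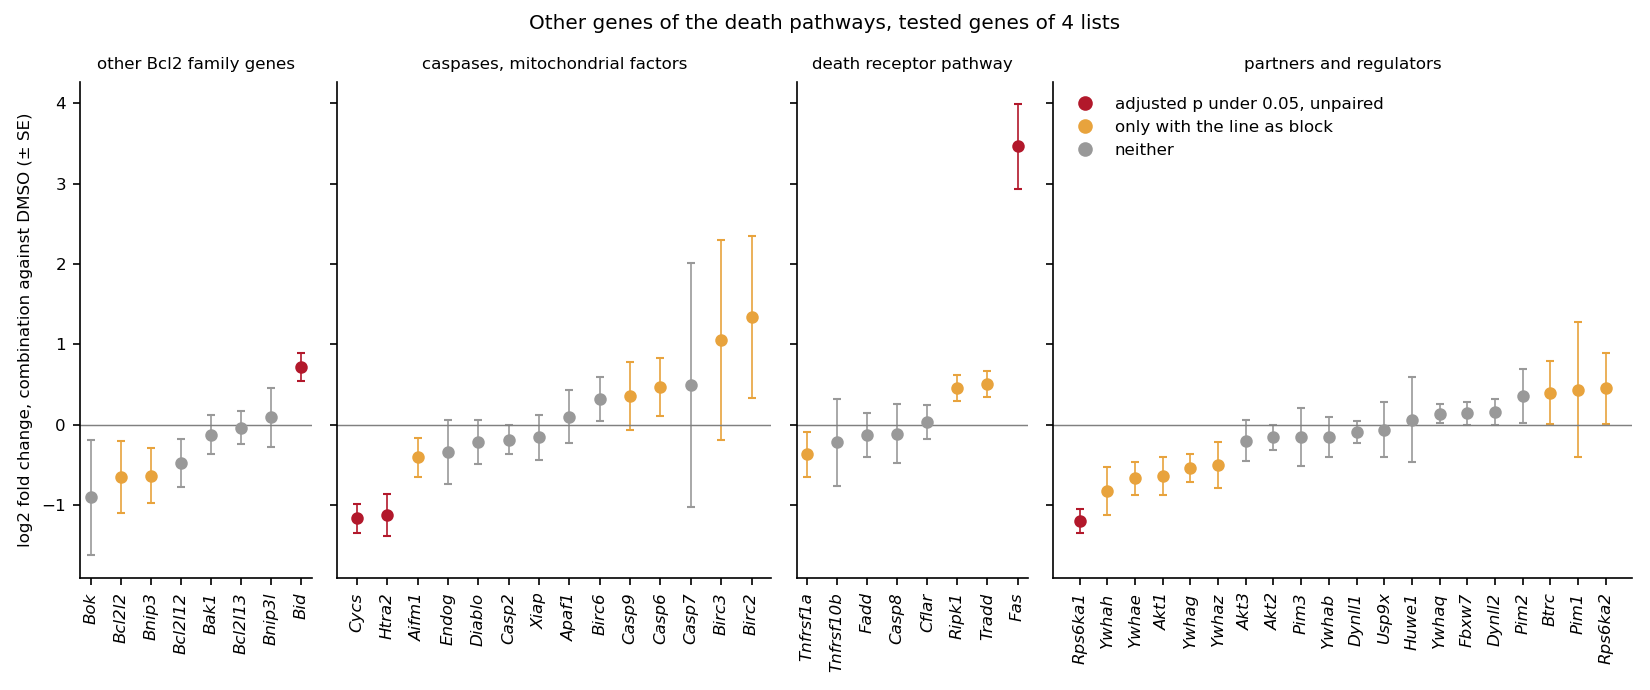
Unpaired log2 fold change (vertical, with its standard error) of the combination against DMSO for the tested genes of 4 lists, each sorted by its change. Red marks passed the unpaired edgeR test (Bid, Cycs, Htra2, Fas and Rps6ka1), orange marks passed only with the line as a block, and grey marks passed neither.

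The share of counts on the mitochondrial genome was above DMSO in each line with every inhibitor treatment, Crizotinib alone included, and highest with the combination. It was 1.21% to 1.29% with DMSO, 1.44% to 1.48% with Crizotinib, 1.53% to 1.66% with PD173074 and 1.93% to 2.52% with the combination. Its part in the results was not tested. Total counts overlapped between treatments.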

How the data were processed

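RNA was sequenced from tumourspheres of 3 tumour lines under 4 treatments (12 libraries). Per the labels the reads went through bcl2fastq, STAR and HTSeq, as the submitters' processing notes name them without versions, on mm10. The deposited file holds whole-number counts per gene, not normalized, with genes at 0 in every library kept. The annotation release and the use of strand are not given in the sources used here. No column of the table was left out.

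Genes were tested with edgeR 4.0.16 (R 4.3.3) on the deposited counts: filterByExpr (minimum count 10, minimum total 15), TMM factors and the quasi-likelihood F-test over all 12 libraries, with treatment as the only term because the study states an unpaired analysis. P-values were adjusted over all 13836 tested genes by Benjamini-Hochberg, with a threshold of 0.05. CPM used TMM library sizes and log2 CPM a prior count of 2. Each sample is 1 culture, and p-values of the unpaired tests are set against the spread between these 3 lines. Those with the line as a block are set against the spread left once differences in level between lines are taken out.

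The line pairs the libraries by origin: deviations from the treatment means correlated at 0.766 to 0.962 between libraries of the same line (18 pairs) and at -0.663 to -0.0472 between different lines and treatments (36 pairs). The test with the line as a block is therefore given where it changed a call. No library was a copy of another, since over 66 pairs the chi-square of the counts, divided by its degrees of freedom, was at least 4.72.

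The alternatives were DESeq2 1.42.0, limma-voom (limma 3.58.1), other size factors, other filters, only the groups compared, the block, and leaving out each line. The edgeR, DESeq2 and limma steps were tested on simulated data. The genes named were the members, for each list up to 4 genes past the threshold in the combination against DMSO by smallest p, every tested gene of the other Bcl2 family genes, and the 3 genes most like each called member in pattern. Genes named outside this rule are marked in the text, apart from cell type markers and untested genes of the other Bcl2 family. A few genes of these lists and of this rule are not reported here and were left out of the list counts. Members and lists were chosen with earlier results of these data known. Coordinates and exon lengths are from a GENCODE annotation of GRCm38, the build of the counts, in which 55480 of 55573 gene identifiers were found. Promoter windows, from 250 bases before to 50 after a start, are RefSeq's. Protein sequences were not analysed here.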

Additional observations from a re-analysis of the deposited data

Results flagged for a closer look

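For Bmf and Bad, the change with PD173074 differed between tumourspheres that also received Crizotinib and those that did not, by the interaction term of the fit with the line as a block. The difference was 2.27 on the log2 scale for Bmf (SE 0.60, edgeR adjusted p = 0.0319, higher in 3 of 3 lines) and 0.66 for Bad (SE 0.15, adjusted p = 0.0186, higher in 3 of 3 lines). Without the block neither passed (adjusted p = 0.32 and 0.424). Of 13 alternatives 1 passed for each gene, the block with all 3 lines, which called 5.46% of all genes as higher. Over all 13 alternatives the adjusted p ran from 0.0319 to 0.974 for Bmf and from 0.0186 to 0.999998 for Bad.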

How the results depend on the processing

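Of 54 pairs of a member and a comparison, 8 passed in the unpaired edgeR test. None of these 8 changed sign under any alternative, but none passed under every one, and 15 of the 54 pairs changed sign, all of them short of the threshold. In the combination against DMSO, the log2 fold change of Mcl1 was 0.020 with total counts alone, 0.010 with at least 10 counts in every library and -0.17 to 0.24 without 1 line (positive without A1005, and 0.25 there with the block), and that of Bcl2l1 was -0.63 to 0.0063 without 1 line (positive without A1005).

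With the line as a replicate block the members called went from 0 to 1 for PD173074 against DMSO, from 3 to 5 for the combination against DMSO and against Crizotinib, from 2 to 4 against PD173074, and from 0 to 2 for the departure from additivity, and it changed no call for Crizotinib against DMSO. DESeq2 called 1 member for PD173074 against DMSO. With only the groups compared, 1 member passed against DMSO, 1 against Crizotinib and 0 against PD173074. Against PD173074, limma-voom, total counts alone and no filter on low counts each called 1, beside 656, 613 and 401 of all genes.

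Leaving out 1 line gave 0 to 3 members called for the combination against DMSO (0 without A1471), 0 to 4 against Crizotinib and 0 to 1 against PD173074, each with 2 lines per treatment. Without A1005 these counts include Bcl2 as lower, which was the only call against PD173074. With the block as well, chosen after seeing the data, the ranges were 0 to 1 for PD173074 against DMSO, 4 to 5 for the combination against DMSO and against Crizotinib, 3 to 5 against PD173074 and 0 to 3 for the departure. Those blocked fits tested 13568 to 14021 genes. They called 4 to 131 of all genes for PD173074 against DMSO and 5153 to 6823 for the combination against DMSO. Against Crizotinib they called 4880 to 6545, and against PD173074 2352 to 4734. Over all genes, the calls unpaired, with the block, in DESeq2, with no filter and with only the groups compared were 1990, 7578, 3032, 1160 and 594 for the combination against DMSO, 1823, 7389, 2930, 1146 and 616 against Crizotinib, and 660, 5506, 1556, 401 and 117 against PD173074. Without 1 line and unpaired they were 120 to 2021, 109 to 1835 and 60 to 627. For the departure they were 127 unpaired, 2241 with the block, 459 in DESeq2, 66 with no filter and 0 without any 1 line, and for PD173074 against DMSO 0, 296 with the block and 17 in DESeq2. The change from DMSO to the combination in the mean log2 CPM of BH3-only minus survival genes moved by less than its spread between lines (1.92 to 2.29). Bik had too few counts to test, and for Pmaip1 the standard error of the combination against DMSO was 1.95 unpaired and 0.73 with the block, with no count in any A1005 library.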
